A study of Mus musculus with 10 samples.

Results

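The proteasome subunit genes were followed in RNA-seq libraries of Ly6G-selected cells from mouse heart and blood. They were the rows of the gene table whose Ensembl gene was protein-coding in the GRCm39 annotation and whose symbol was Psma, Psmb, Psmc, Psmd or Psme followed by digits alone. The rule used no measured value. It found 43 of the 28185 genes in the table, and every gene that the annotation holds under this rule was among them. Of these, 41 passed the filter on low values, a mean of at least 10 normalized counts over the 10 libraries, and were tested together with 11549 genes in all. Psma8 and Psmb11 did not pass it.

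The libraries came from male C57Bl/6J mice 12 to 16 weeks old, all collected 3 days after the left coronary artery was tied off, so the blood was also blood of infarcted animals. Ly6G is a surface protein of neutrophils, and the cells were enriched on magnetic columns with beads against it. MI is cells of the infarcted left ventricle of mice without MSC (n = 3 libraries), and MI + MSC is the same tissue from mice given MSC (n = 3). The circulating cells make up Blood, from mice without MSC (n = 2), and Blood + MSC, from mice given them (n = 2). The MSC were mesenchymal stromal cells from the bone marrow of the same inbred strain, injected under the skin at 3 sites within the hour after the artery was tied and not into the heart. Libraries are named by group and library number. The labels do not tie cardiac libraries to blood libraries of the same mouse, and they give a batch name that is the same as the group, so batch and group cannot be told apart. Per the study's methods a single animal was the experimental unit, and p-values measure the spread between these libraries.

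The proteasome is the protease that degrades proteins marked with ubiquitin. Its core particle is a barrel of 2 outer alpha rings (Psma genes) and 2 inner beta rings (Psmb genes), and only 3 beta subunits cut peptide bonds: Psmb6, Psmb7 and Psmb5. The regulatory particle sits on the end of the barrel: its base holds the ATPases that unfold the substrate (Psmc genes) and its lid removes the ubiquitin chain (most Psmd genes). In immune cells, and in other cells under interferon gamma, the cutting subunits are exchanged for Psmb9, Psmb10 and Psmb8, which makes the immunoproteasome, and the cap built of Psme1 and Psme2 favours short peptides of the kind that MHC class I presents. Below, immunoproteasome genes are Psmb8, Psmb9, Psmb10, Psme1 and Psme2, and the other 36 tested genes are called constitutive.

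These gene groups lie partly side by side in the genome. In GRCm39, Psmb9 (ENSMUSG00000096727, chr17:34400960-34406738, minus strand) and Psmb8 (ENSMUSG00000024338, chr17:34416690-34420428, plus strand) are neighbours in the MHC region. Psme1 (ENSMUSG00000022216, chr14:55815190-55822034, plus strand) and Psme2 (ENSMUSG00000079197, chr14:55824895-55829173, minus strand) are neighbours too, while Psmb10 (ENSMUSG00000031897) lies alone at chr8:106662362-106665077. The constitutive partners are scattered: Psmb6 (ENSMUSG00000018286) at chr11:70416183-70418684, Psmb7 (ENSMUSG00000026750) at chr2:38478044-38534099 and Psmb5 (ENSMUSG00000022193) at chr14:54850776-54855481.

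Promoter windows are shown for Psme1 and Psmb8 of the immunoproteasome, and for Psmb5, Psmb6 and Psmd9 of the constitutive set. All of them hold a match of a kind marked here, which many other members do not. With all libraries, Psme1, Psmb8, Psmb5 and Psmb6 had negative fold changes in MI against Blood, and Psmd9 had a positive one (1.66). In MI + MSC against Blood + MSC, Psme1 and Psmb8 had negative fold changes, and Psmb5, Psmb6 and Psmd9 had positive ones. Each window runs from 250 bases before to 50 bases after the gene start of RefSeq (table of build GRCm38.p6), and was placed in GRCm39 by its 1 exact match. This start is that of the GENCODE gene for Psmb6 and lies inside the GENCODE gene for the other 4, farthest inside for Psmd9. Capitals mark matches, on either strand, to a core of the interferon-stimulated response element (GAAA, 2 bases of any kind and GAAA), of the gamma-activated site (TTCNNNGAA) or of the antioxidant response element (TGACNNNGC). The first 2 are sequences known to bind interferon-activated factors, and the last is known to bind the factors Nfe2l1 and Nfe2l2.
Psme1 (chr14:55815701-55816000, plus strand): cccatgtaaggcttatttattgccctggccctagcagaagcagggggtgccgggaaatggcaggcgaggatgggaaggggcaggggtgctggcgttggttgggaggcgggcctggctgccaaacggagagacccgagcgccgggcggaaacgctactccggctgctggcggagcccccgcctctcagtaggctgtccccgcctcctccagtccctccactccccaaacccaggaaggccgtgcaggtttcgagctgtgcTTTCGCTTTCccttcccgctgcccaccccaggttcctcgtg
Psmb8 (chr17:34416919-34417218, plus strand): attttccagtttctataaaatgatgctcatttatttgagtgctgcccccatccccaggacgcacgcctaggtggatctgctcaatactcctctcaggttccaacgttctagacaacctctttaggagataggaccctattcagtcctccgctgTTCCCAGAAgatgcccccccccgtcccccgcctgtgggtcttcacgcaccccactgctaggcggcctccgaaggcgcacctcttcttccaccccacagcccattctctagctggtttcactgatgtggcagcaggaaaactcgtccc
Psmb5 (chr14:54855403-54855702, minus strand): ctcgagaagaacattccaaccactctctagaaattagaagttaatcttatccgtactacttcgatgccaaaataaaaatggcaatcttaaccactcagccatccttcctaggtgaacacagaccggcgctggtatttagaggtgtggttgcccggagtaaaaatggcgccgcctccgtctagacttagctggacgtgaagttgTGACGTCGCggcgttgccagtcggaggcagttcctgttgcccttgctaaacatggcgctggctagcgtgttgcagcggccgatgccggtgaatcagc
Psmb6 (chr11:70415933-70416232, plus strand): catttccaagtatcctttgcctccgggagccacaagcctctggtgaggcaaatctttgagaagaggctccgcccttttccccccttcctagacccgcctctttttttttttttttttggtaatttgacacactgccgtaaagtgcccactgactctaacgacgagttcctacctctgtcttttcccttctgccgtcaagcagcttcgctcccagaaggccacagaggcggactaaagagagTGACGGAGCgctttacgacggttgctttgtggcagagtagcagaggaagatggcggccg
Psmd9 (chr5:123366003-123366302, plus strand): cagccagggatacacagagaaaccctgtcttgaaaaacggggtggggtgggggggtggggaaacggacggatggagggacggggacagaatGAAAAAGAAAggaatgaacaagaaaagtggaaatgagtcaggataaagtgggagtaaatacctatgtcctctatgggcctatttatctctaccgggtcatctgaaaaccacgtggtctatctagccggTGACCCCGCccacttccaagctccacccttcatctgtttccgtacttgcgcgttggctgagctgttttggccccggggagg

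Psme1 holds a match to the interferon-stimulated response element just after its start and Psmb8 a match to the gamma-activated site, whereas Psmb5 and Psmb6 each hold a match to the antioxidant response element before it. Psmd9 holds a match of the first and of the last kind. The windows of Psmb9, Psmb10 and Psme2 hold no match of the first 2 kinds, and 3 of the 4 genes matched to the first kind (Psmb3, Psmd4 and Psmd9) are constitutive. RefSeq windows were matched for 36 of the 43 genes (39 windows, the other genes being Psma8, Psmb1, Psmb2, Psmb7, Psmc3, Psmd3 and Psmd7). The interferon-stimulated response element was matched in 4 of these windows, or 10.3%, and in 3.44% of 32851 promoter windows in all. The gamma-activated site was matched in 2 (5.13%, against 8.30% of all), the antioxidant response element in 6 (15.4%, against 12.4%) and the CCAAT box (CCAAT) in 14 (35.9%, against 37.4%). The ETS core CCGGAAG was matched in 13 windows of 12 genes, or 33.3%, against 8.86% of all promoter windows, and in no immunoproteasome gene. Both strands were searched, matches of the first 2 motifs can overlap, and a match describes the sequence without showing that a factor binds it.

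Depth differed widely and bears on every value below. The tables hold read counts divided by a size factor, called normalized counts here, and the reads behind them could be recovered as whole numbers: 148594 in MI 13, 268860 in Blood 21 and 665946 to 8602711 in the other 8 libraries. In MI 13, 1 read is worth 8.40 normalized counts and in Blood 21 7.07, against 0.168 to 2.30 in the others. The 43 genes took 0.129% to 0.327% of a library's reads, which is 249 reads in MI 13, 347 in Blood 21 and 1058 to 28090 elsewhere. Neutrophil markers, summed over 11 genes, lay at 2496 to 7916 normalized counts in MI, 2801 to 13438 in MI + MSC, 44194 to 51265 in Blood and 16403 to 23270 in Blood + MSC. At least 9 of the 11 reached the floor of 3 reads in every library except MI 13, where Ly6g (2 reads), Camp (1) and Ngp (0) did not. Cardiomyocyte markers (6 genes) lay at 3030 to 9505 in MI, 1191 to 4745 in MI + MSC and at most 5.25 in blood, so the cardiac libraries also held RNA of the heart wall. Macrophage and monocyte markers (8 genes) lay at 2101 to 6035 in MI and 3988 to 8426 in MI + MSC. They lay at 5591 to 6309 in Blood and 4675 to 5874 in Blood + MSC. Their sum exceeded that of the neutrophil markers in MI 20 (6035 against 5881) and MI + MSC 18 (8426 against 2801), and in no blood library. In such bulk libraries, fewer cells of a type and less RNA per cell cannot be told apart.

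**Figure D1:**
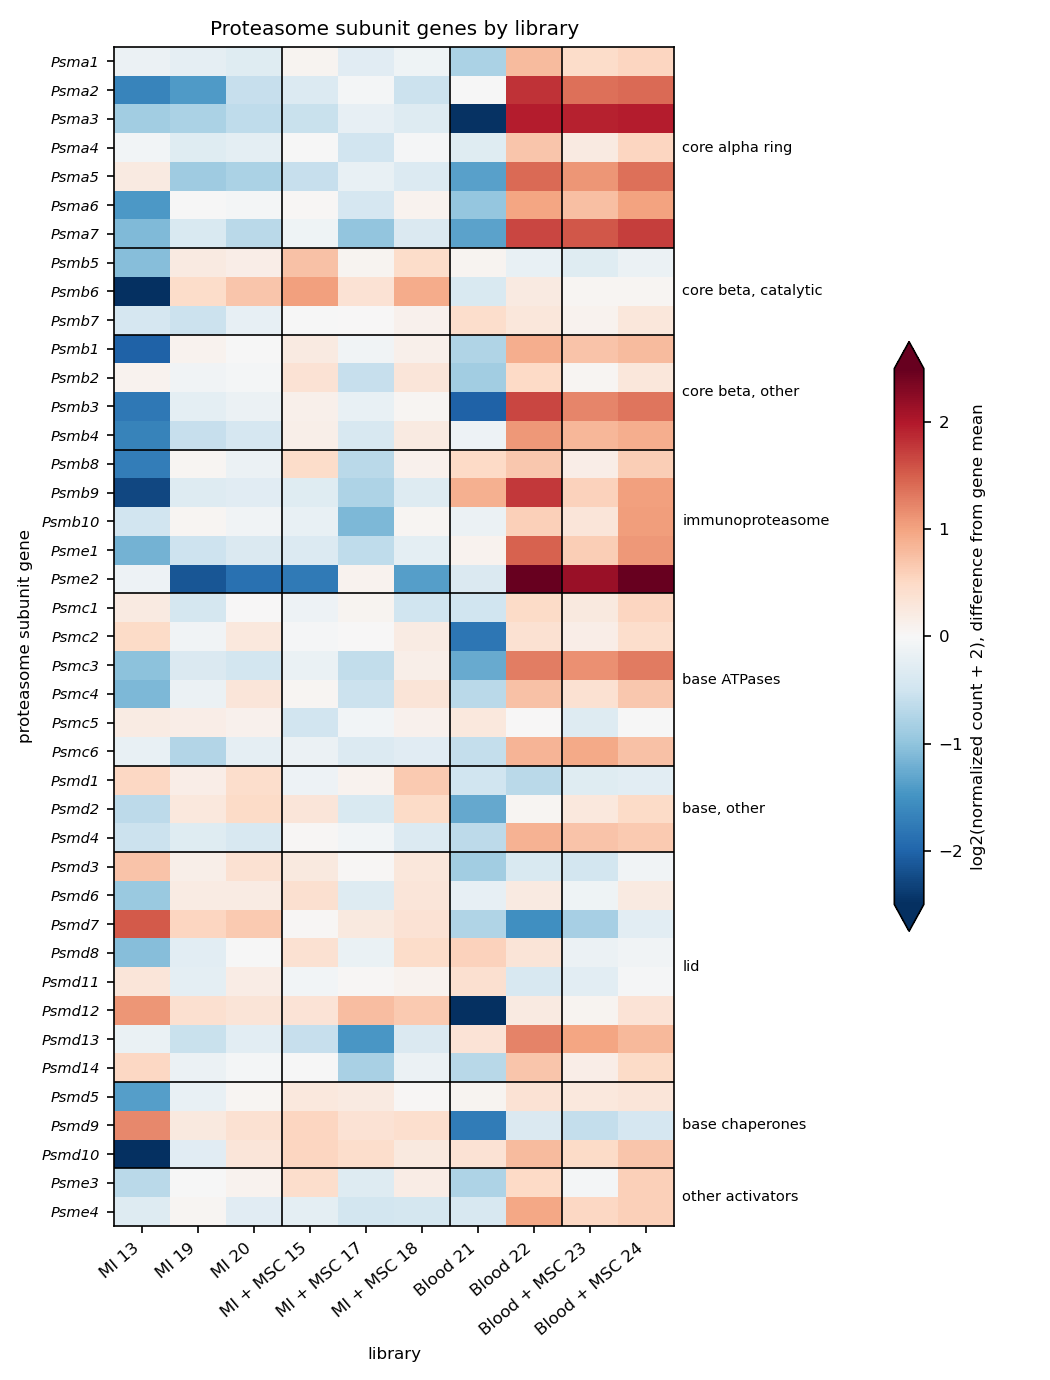
Heat map of the 41 tested proteasome subunit genes (rows, grouped by role) in the 10 libraries (columns, black lines between groups). Colour is log2(normalized count + 2) minus the mean of the gene over all libraries, from blue (lower) to red (higher) and saturated beyond 2.5. The alpha ring and Psme2 are red in Blood 22 and both Blood + MSC libraries, and Blood 21 stands apart from them.

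For 2 of the 3 catalytic pairs, the immunoproteasome form took a smaller share in the heart than in blood. To compare genes, normalized counts were divided by the summed exon length in kilobases, and for each pair the immunoproteasome form was given as a percentage of both forms. Such a share is taken within a library and does not depend on the size factor. For Psmb9 against Psmb6, which share a position in the inner ring, the share was 45.2% in MI 19, 41.8% in MI 20, 35.4% in MI + MSC 15, 38.6% in MI + MSC 17 and 37.0% in MI + MSC 18. In blood it was 79.0% in Blood 21, 81.2% in Blood 22, 68.4% in Blood + MSC 23 and 74.7% in Blood + MSC 24. MI 13 held 1 read of Psmb9 and none of Psmb6, so that its share carries no information. Every other cardiac library lay below every blood library. With the length of the longest coding transcript in place of the summed exons, the share was 54.4% to 64.2% in those 5 cardiac libraries and 82.5% to 90.4% in blood, so which form prevailed in the heart depends on the length used.

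For Psmb8 against Psmb5, the pair that carries the chymotrypsin-like activity, the share was 25.9% in MI 13, 33.2% in MI 19 and 30.9% in MI 20. It was 31.6% in MI + MSC 15, 25.0% in MI + MSC 17 and 30.5% in MI + MSC 18. The blood values were 43.0% in Blood 21, 50.9% in Blood 22, 43.7% in Blood + MSC 23 and 48.9% in Blood + MSC 24. All 6 cardiac libraries lay below all 4 blood libraries. In the deep libraries the counting error was small beside this gap. The 95% Wilson interval was 27.1% to 35.1% in MI 20 (437 reads) and 46.4% to 51.5% in Blood + MSC 24 (1637 reads). In the shallow libraries it was wide, at 9.60% to 53.6% in MI 13 (10 reads) and 28.7% to 58.6% in Blood 21 (39 reads). These intervals cover counting error only.

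The third pair, Psmb10 against Psmb7, did not separate the tissues. Its share ran from 55.6% to 81.6% over the 6 cardiac libraries and from 65.5% to 83.2% over the 4 blood libraries. Psmb10 was the main form in all 10 libraries by this measure, and in all but MI + MSC 17 (48.3%) with the longest coding transcript. Over the 3 pairs together, the immunoproteasome share was 45.0% ± 2.4 in MI (SD, n = 3), 37.1% ± 4.2 in MI + MSC (n = 3), 59.7% ± 8.2 in Blood (n = 2) and 60.9% ± 5.0 in Blood + MSC (n = 2). The MI mean and SD include MI 13, which held 20 reads over the 3 pairs and none of Psmb6. The MI libraries, at 47.3%, 45.2% and 42.4%, lay above the MI + MSC libraries, at 38.5%, 32.3% and 40.4%, without overlap. The highest of these, 47.3% in MI 13, rests on 20 reads. The nearest values, 42.4% in MI 20 and 40.4% in MI + MSC 18, also carry counting error, and no interval was computed over the 3 pairs. Whether MSC changed this share thus stays undecided. The 2 blood groups overlapped, with 53.9% and 65.5% against 57.4% and 64.5%. With the longest coding transcript, the 4 means became 55.5%, 49.2%, 71.7% and 71.3%, so the order of forms within a library rests on the length used and the order of tissues did not. No test was run on these shares.

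**Figure D2:**
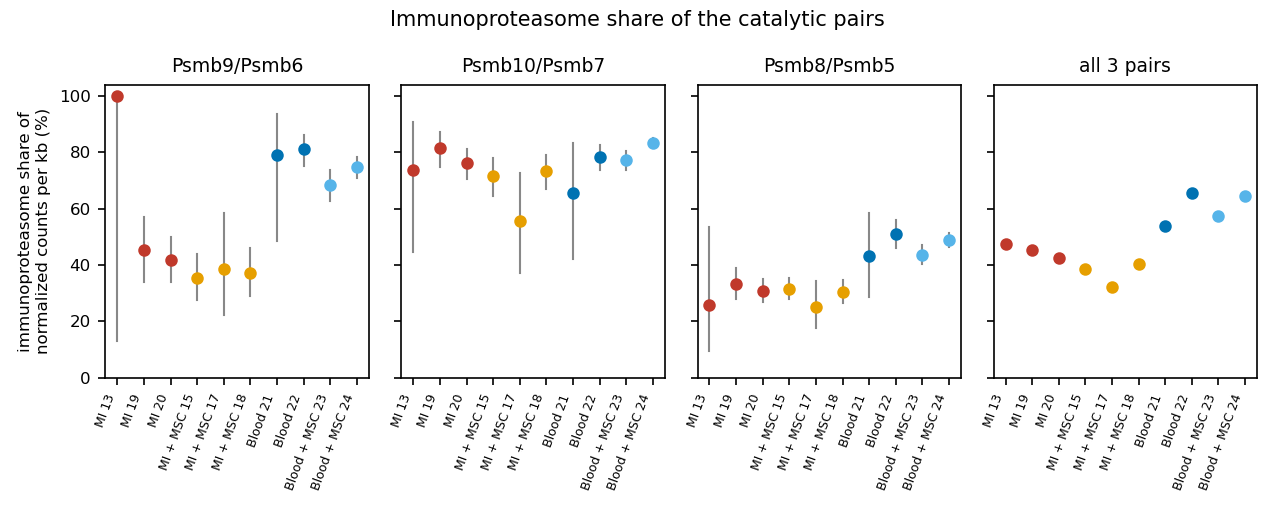
Share of the immunoproteasome form (vertical axis, percent of normalized counts per kilobase of exon) in each of the 10 libraries for Psmb9/Psmb6, Psmb10/Psmb7, Psmb8/Psmb5 and the 3 pairs together. Points are libraries (red MI, orange MI + MSC, dark blue Blood, light blue Blood + MSC) and grey bars are 95% Wilson intervals of the reads. Cardiac libraries sit below blood libraries for Psmb9/Psmb6 (apart from MI 13, with 1 read) and Psmb8/Psmb5, and overlap them for Psmb10/Psmb7.

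The immunoproteasome genes were lower in the heart than in blood in the group without MSC for 3 of 5 genes, where 13.5% of all genes were called lower. Normalized counts of Psmb9 were 8.40, 38.4 and 39.6 in MI 13, 19 and 20, and 91.8 and 170 in Blood 21 and 22. All MI values lay below both Blood values, and Psmb9 was lower in MI by a log2 fold change of -2.29 ± 0.56 (SE; adjusted p = 0.00998). Adjusted p-values come from limma over all 11549 genes on log2(normalized count + 2), a scale that understates the change of low genes, and a call also needed a log2 fold change of at least 0.5 in size. Psme1, the alpha subunit of the peptide-favouring cap, stood at 33.6, 54.8 and 61.2 in MI and at 84.8 and 225 in Blood (log2 fold change -1.48 ± 0.41, adjusted p = 0.0191). Its partner Psme2 stood at 25.2, 4.81 and 6.18 in MI and at 21.2 and 216 in Blood (-2.63 ± 0.89, adjusted p = 0.0409). The Psme2 groups overlapped, since MI 13 and Blood 21 held 3 reads each, which is the floor of detection set here.

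Psmb8, the exchange form of Psmb5, stood at 33.6, 119 and 103 in MI and at 163 and 186 in Blood, without overlap. Its log2 fold change was -1.19 ± 0.50 and did not pass (adjusted p = 0.0839). Psmb10 stood at 33.6, 49.0 and 44.8 in MI and at 42.4 and 72.8 in Blood (-0.39 ± 0.42, adjusted p = 0.495), so that its groups overlapped. All 5 genes had negative fold changes, with a median of -1.48 beside 0.15 over all genes tested. Markers of cell types also moved in this comparison. Lower in MI were neutrophil (9 of 11), platelet (5 of 5) and erythroid markers (2 of 5), beside 13.5% of all genes. Higher were cardiomyocyte (6 of 6), endothelial (4 of 6) and fibroblast markers (3 of 6), beside 21.2%. Of the macrophage and monocyte markers, 1 of 8 was called higher and 0 lower, with a median log2 fold change of -0.56 over the 8. The part of all these markers in the result was not tested. With scaling by library size in place of the deposited size factors, Psmb10 turned to 0.11, the other 4 stayed negative, and Psme1 and Psme2 lost their calls.

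None of the constitutive catalytic genes was called between MI and Blood. Psmb5 stood at 50.4, 126 and 121 in MI and at 113 and 94.2 in Blood (-0.16 ± 0.39, adjusted p = 0.769). Psmb6 stood at 0, 26.9 and 31.9 in MI and at 14.1 and 22.7 in Blood (-0.67 ± 0.96, adjusted p = 0.612), where the 0 of MI 13 allows up to 25.2 normalized counts. For both genes the value of MI 13 was the lowest of the group, and without it the fold changes were 0.26 for Psmb5 and 0.65 for Psmb6. Psmb7 stood at 42.0, 38.4 and 48.9 in MI and at 77.7 and 69.5 in Blood, without overlap (-0.75 ± 0.27, adjusted p = 0.0509).

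**Figure D3:**
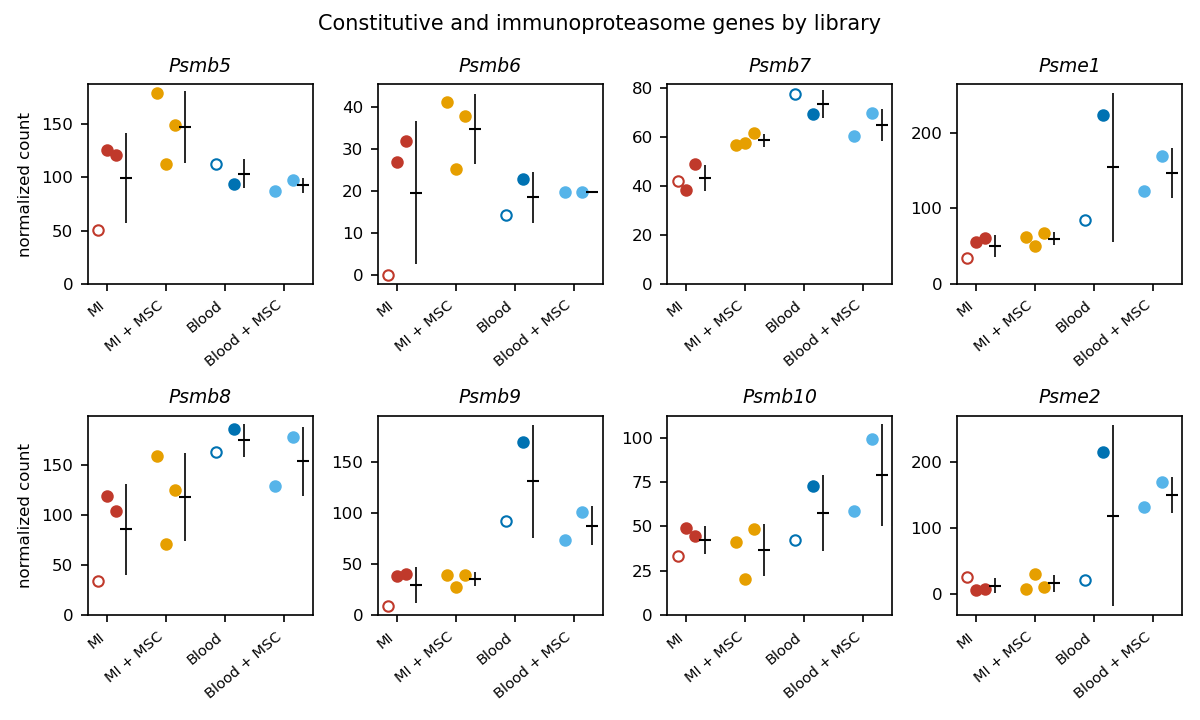
Normalized counts (vertical axes, linear, each panel with its own range) of the constitutive catalytic genes Psmb5, Psmb6 and Psmb7, the immunoproteasome forms Psmb8, Psmb9 and Psmb10, and the cap genes Psme1 and Psme2. Each point is a library (red MI, orange MI + MSC, dark blue Blood, light blue Blood + MSC), open for the shallow MI 13 and Blood 21, with the group mean ± SD in black beside it. Psmb9 and Psme1 lie lower in all 6 cardiac than in all 4 blood libraries, and Psme2 is near the floor in the heart and at 131 to 216 in Blood 22 and both Blood + MSC libraries.

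With MSC, the cardiac and blood libraries gave the same order for most of these genes. Psme2 stood at 6.76, 29.8 and 9.49 in MI + MSC and at 131 and 170 in Blood + MSC, and was lower in the heart by a log2 fold change of -3.36 ± 0.89 (adjusted p = 0.0299). Psmb9 stood at 39.2, 27.6 and 38.6 in MI + MSC and at 73.8 and 101 in Blood + MSC (-1.27 ± 0.56, adjusted p = 0.145). Psme1 stood at 62.2, 50.5 and 67.1 in MI + MSC and at 123 and 170 in Blood + MSC (-1.26 ± 0.41, adjusted p = 0.0648). Neither passed, although the groups did not overlap for either gene. Markers of cell types moved here too. Higher in MI + MSC were cardiomyocyte (6 of 6), endothelial (4 of 6), fibroblast (2 of 6) and macrophage and monocyte markers (1 of 8), beside 8.23% of all genes. Lower were erythroid (4 of 5), neutrophil (2 of 11) and platelet markers (1 of 5), beside 5.85%. Their part was not tested.

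Psmb10 stood at 41.2, 20.7 and 48.8 in MI + MSC and at 58.8 and 99.4 in Blood + MSC, without overlap (-1.09 ± 0.42, adjusted p = 0.104). Psmb8 stood at 158, 71.2 and 125 in MI + MSC and at 129 and 178 in Blood + MSC (-0.43 ± 0.50, adjusted p = 0.595) and overlapped. Of the constitutive forms, Psmb5 stood at 180, 112 and 149 in MI + MSC and at 87.2 and 97.6 in Blood + MSC (0.64 ± 0.39, adjusted p = 0.293). Psmb6 stood at 41.2, 25.3 and 38.0 in MI + MSC and at 19.7 and 19.9 in Blood + MSC (0.73 ± 0.96, adjusted p = 0.639). Both lay higher in every MI + MSC than in every Blood + MSC library, with fold changes of the opposite sign to those of the 5 immunoproteasome genes, and neither passed. Psmb7, at 56.8, 57.4 and 61.7 against 60.4 and 69.7, had a fold change of -0.14 ± 0.27 (adjusted p = 0.757). Without MI 13 and Blood 21, an alternative chosen after the data had been seen, 4 of the 5 immunoproteasome genes were lower in MI + MSC than in Blood + MSC, where 18.9% of all genes were (Psmb9, adjusted p = 0.00304, Psmb10, 0.0339, Psme1, 0.00208, and Psme2, 0.000722). Psmb5 was then higher (adjusted p = 0.0439) and Psmb6 was not called (0.0584).

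Psme2b, a near-identical copy of Psme2 at chr11:48836181-48837017, is a place where reads of Psme2 could be lost or gained in counting. It stood at 14.2 to 34.6 normalized counts in the 6 cardiac libraries, at 98.9 in Blood 21 and at 29.2 to 30.3 in the other 3 blood libraries. In reads, the copy exceeded Psme2 in MI 19 (36 against 5), MI 20 (65 against 12), MI + MSC 15 (32 against 10), MI + MSC 18 (21 against 14) and Blood 21 (14 against 3), and Psme2 exceeded the copy in Blood 22 (333 against 45), Blood + MSC 23 (500 against 111) and Blood + MSC 24 (1011 against 180). How far reads of the 2 genes were assigned to the other was not tested, so the cardiac level of Psme2 and both of its fold changes are uncertain.

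Over all 41 genes, MI and Blood differed in both directions. In MI, 5 genes were higher, or 12.2% beside 21.2% of all genes tested, and 6 were lower, or 14.6% beside 13.5%, so that neither count stood out from the background. The median log2 fold change of the 41 genes was -0.50, beside 0.15 over all genes tested. The scaling moved both medians together: with library size they were 0.01 and 0.63, and with TMM factors -0.70 and -0.07. Relative to all genes, the members thus lay 0.65 lower in the deposited scaling, 0.63 lower with library size and 0.63 lower with TMM, a distance that was gone without Blood 22 (medians of 0.23 and 0.24). The calls were 5 higher and 2 lower with library size, and 1 higher and 3 lower with TMM.

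Blood 21 and Blood 22 pulled these counts apart. Without Blood 22, 6 genes were higher in MI (23.9% of all genes) and 0 lower (9.85%), with a member median of 0.23 beside 0.24 over all genes. Without Blood 21, 1 was higher (15.7%) and 15 were lower (14%), with a median of -0.98 beside 0.04. Leaving out MI 13, MI 19, MI 20, MI + MSC 15, MI + MSC 17, Blood + MSC 23 or Blood + MSC 24 left 2 or 3 genes higher, and leaving out MI + MSC 15, Blood + MSC 23 or Blood + MSC 24 left 3 lower. Blood 21 also held 25972 normalized counts of platelet markers (5 genes in the table), against 454 to 1754 in the other 9 libraries, and 466 of erythroid markers, against 2469 to 9038 in the other blood libraries. Their part in the result was not tested. Without Blood 22, the calls of Psma2, Psmb4, Psmb9, Psmd13, Psme1 and Psme2 were lost, and without Blood 21 those of Psmd1, Psmd3, Psmd9 and Psmd12. Without MI 13, those of Psmb4, Psmd1, Psmd3, Psmd12 and Psmd13 were lost, and Psmd7 kept its call whichever library was left out. Without both MI 13 and Blood 21, 1 gene was higher (19.9%) and 18 were lower, or 43.9% beside 18.3% of all genes. Wherever Blood 21 or Blood 22 is left out, Blood is a single library that is assumed to vary like the other groups, which then give the spread.

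**Figure D4:**
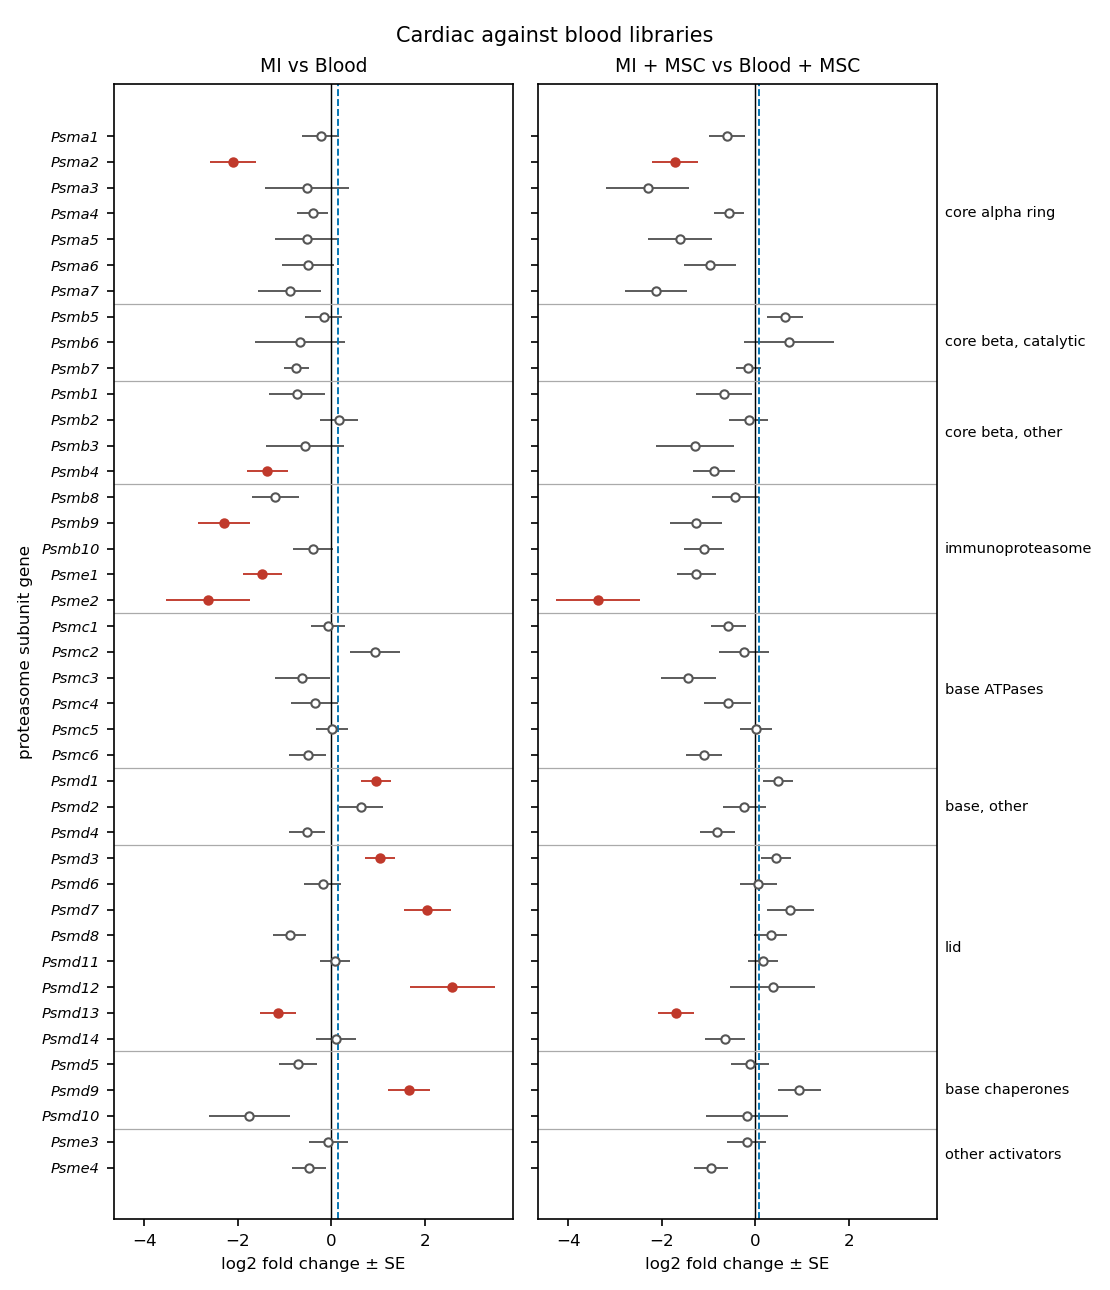
Log2 fold changes ± SE (limma, horizontal axes) of the 41 tested genes for MI against Blood (left) and MI + MSC against Blood + MSC (right), by role. Filled red points are called, open points are not, and the dashed blue line is the median of all 11549 genes. Immunoproteasome and alpha ring genes lie left of that line in both panels, while lid genes fall on both sides.

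Of the 7 alpha ring genes, which form the gate of the barrel, Psma2 was the one called lower in the heart in both comparisons with all libraries. Psma2 stood at 16.8, 20.2 and 37.6 in MI, at 44.6, 55.1 and 38.6 in MI + MSC, at 56.5 and 204 in Blood and at 152 and 156 in Blood + MSC. All 6 cardiac values lay below all 4 blood values, and Psma2 was called lower in both MI (-2.11 ± 0.49, adjusted p = 0.00842) and MI + MSC (-1.71 ± 0.49, adjusted p = 0.0405). Psma3 stood at 25.2 to 41.3 in the 6 cardiac libraries, at 7.07 (1 read) in Blood 21 and at 193, 186 and 192 in the other 3 blood libraries. Blood 21 thus lay below the cardiac libraries and the other blood libraries far above them. With all libraries, 1 of 7 alpha ring genes was thus called lower in MI (beside 13.5% of all genes) and in MI + MSC (beside 5.85%), and all 7 fold changes were negative in both. With library size scaling 3 of the 7 turned positive in MI against Blood, and all 7 remained below the median of all genes. Without MI 13 and Blood 21, which leaves Blood 22 as the only Blood library, 7 of 7 were lower in MI (beside 18.3% of all genes), from -0.96 for Psma4 to -2.80 for Psma2. In MI + MSC 6 of 7 were then lower (beside 18.9%), the exception being Psma4 (-0.56, adjusted p = 0.0596).

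Of the beta ring genes that do not cut, only Psmb4 was called with all libraries. It stood at 25.2, 56.7 and 62.8 in MI and at 77.7 and 182 in Blood, without overlap (-1.37 ± 0.44, adjusted p = 0.0345). Psmb1, Psmb2 and Psmb3 ranged from 16.8 to 114 in MI and from 14.1 to 205 in Blood and were not called. Without MI 13 and Blood 21, Psmb1, Psmb3 and Psmb4 were lower in both comparisons and Psmb2 in neither.

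In the base of the regulatory particle, the ATPase genes Psmc1 to Psmc6 gave no call with all libraries, and Psmc3 and Psmc6 were lower in both comparisons without MI 13 and Blood 21. Psmd1, a scaffold subunit of the base, stood at 58.8, 46.1 and 56.1 in MI and at 28.3 and 24.7 in Blood (0.96 ± 0.33, adjusted p = 0.0407). It stood at 37.2, 43.6 and 65.1 in MI + MSC and at 32.6 and 33.5 in Blood + MSC (0.49 ± 0.33, adjusted p = 0.327), so all 6 cardiac values lay above all 4 blood values. Psmd2, the other scaffold, and Psmd4, a ubiquitin receptor, were not called with all libraries, and Psmd4 was lower in both comparisons without MI 13 and Blood 21.

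The lid split. Psmd7, the partner of the deubiquitinase Psmd14, stood at 42.0, 20.2 and 22.1 in MI, at 13.5, 16.1 and 17.6 in MI + MSC, at 7.07 and 3.25 in Blood and at 6.57 and 10.8 in Blood + MSC. It was higher in MI (2.06 ± 0.51, adjusted p = 0.0108), it was not called in MI + MSC (0.76 ± 0.51, adjusted p = 0.333), and its values rest on 1 to 64 reads a library. Psmd3, a structural lid subunit, stood at 67.2, 45.2 and 53.5 in MI and at 21.2 and 30.5 in Blood (1.04 ± 0.32, adjusted p = 0.0293). Both genes lay above all blood values in all 6 cardiac libraries. For Psmd7, the Blood 21 value is 1 read and allows up to 21.2 normalized counts, so its separation from that library is uncertain.

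Psmd13, also a structural lid subunit, went the other way and was the lid gene called in both comparisons. It stood at 58.8, 44.2 and 54.6 in MI and at 84.8 and 160 in Blood (-1.13 ± 0.39, adjusted p = 0.0411). It stood at 43.9, 23 and 50.8 in MI + MSC and at 134 and 119 in Blood + MSC (-1.70 ± 0.39, adjusted p = 0.0150). No cardiac value reached a blood value. Psmd12 stood at 75.6, 46.1 and 43.2 in MI and at 0 and 40.3 in Blood (2.59 ± 0.91, adjusted p = 0.0467). That call rests on the 0 of Blood 21, which allows up to 21.2 normalized counts: without Blood 21 the fold change was 0.39. Psmd6, Psmd8, Psmd11 and Psmd14 were not called, and Psmd8 was the most abundant of the 41 genes per kilobase of summed exons in all 4 groups.

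Among the chaperones that assemble the base, Psmd9 stood at 67.2, 33.6 and 37.6 in MI and at 7.07 and 21.4 in Blood (1.66 ± 0.45, adjusted p = 0.0171). It stood at 41.9, 36.7 and 38.6 in MI + MSC and at 18.1 and 20.5 in Blood + MSC (0.95 ± 0.45, adjusted p = 0.180). All cardiac values lay above all blood values. Psmd5 and Psmd10 were not called. Of the other caps, Psme3 and Psme4 were not called, and Psme4 was lower in both comparisons without MI 13 and Blood 21. The tissue-restricted genes were near the floor: Psma8, the testis form of an alpha subunit, had 1 to 18 reads a library, and Psmb11, the thymus form of Psmb5, had 0 to 3 reads.

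Counted without a model, 4 genes lay higher in all 6 cardiac than in all 4 blood libraries (Psmd1, Psmd3, Psmd7 and Psmd9, beside 19.1% of all genes) and 4 lay lower (Psma2, Psmb9, Psmd13 and Psme1, beside 14%). Without MI 13 and Blood 21, 6 lay higher (Psmb5 and Psmb6 in addition, beside 28.7%) and 23 lay lower (beside 25.1%). In MI + MSC against Blood + MSC the calls were 0 higher (8.23% of all genes) and 3 lower, or 7.32% beside 5.85%, namely Psma2, Psmd13 and Psme2. The member median was -0.57, beside 0.09 over all genes, and with TMM factors -1.18, beside -0.50. This count of 3 became 0 without Blood + MSC 23 or Blood + MSC 24, 1 without MI + MSC 15 or MI + MSC 18, 5 without MI 13 and 11 without Blood 21 or Blood 22. Without MI 13 and Blood 21 it was 2 higher (Psmb5 and Psmd9, beside 22.3%) and 18 lower, or 43.9% beside 18.9%. Neither library belongs to this comparison, so its fold changes stayed as they were and the estimate of the spread changed.

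Per kilobase of exon, Psmd8 led in MI (70.8 ± 24.5 normalized counts per kilobase, SD), MI + MSC (109 ± 24), Blood (126 ± 17) and Blood + MSC (84.8 ± 2.7). Psmb5 was second in MI (55.3 ± 23.6), MI + MSC (82.0 ± 18.8) and Blood (57.8 ± 7.4), and in MI its spread reached that of Psmd8. In Blood + MSC, Psme2 was second (63.5 ± 11.5), followed by Psma6 (59.6 ± 7.4), Psmb3 (52.9 ± 2.7) and Psmb5 (51.5 ± 4.1), neighbours that did not differ beyond their spread. In MI, Psme2 averaged 12.1 ± 11.4 normalized counts before length. The lowest of the 41 were Psma3 in MI (2.58), Psmd9 in MI + MSC (3.06) and Blood + MSC (1.51), and Psmd7 in Blood (1.02). The order rests on the length used: per kilobase of the longest coding transcript, Psma7 (151) lay above Psmd8 (118) in Blood + MSC, Psma2 (7.10) was the lowest in MI and Psmd7 in the other 3 groups.

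In the heart, no subunit gene was called between MI + MSC and MI in either direction, beside 0% of all genes, so the main limma fit called no gene at all. At an unadjusted p under 0.05, 1 of the 41 genes passed beside 8.01% of all genes. That gene was Psmb4, at 94.0, 64.3 and 99.7 in MI + MSC and at 25.2, 56.7 and 62.8 in MI (0.88 ± 0.40, adjusted p = 0.618). Of all genes, edgeR called 0. DESeq2 called 53 higher and 95 lower on the 2 groups, and 21 higher and 58 lower on all libraries. With voom weights, limma called 39 higher and 222 lower. No member was among any of these calls. The Psmb4 groups did not overlap. The immunoproteasome genes had fold changes of 0.57 for Psmb8 (95% interval -0.41 to 1.55), 0.50 for Psmb9 (-0.59 to 1.59), -0.26 for Psmb10 (-1.09 to 0.57), 0.29 for Psme1 (-0.53 to 1.10) and 0.36 for Psme2 (-1.39 to 2.11). Each of these intervals holds a change of 1 on the log2 scale in at least 1 direction, so that a change of that size could not be told from none with these libraries. Without MI 13, Psmb9 turned to -0.16.

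Among the constitutive catalytic genes, Psmb5 had a fold change of 0.64 (-0.13 to 1.41), Psmb6 of 1.53 (-0.36 to 3.42) and Psmb7 of 0.43 (-0.10 to 0.96). The Psmb6 value includes the 0 reads of MI 13, which allow up to 25.2 normalized counts. MI 19 and MI 20 stood at 26.9 and 31.9 for Psmb6, within the MI + MSC range of 25.3 to 41.2. The groups did not overlap for 4 genes that lay higher in MI + MSC (Psma2, Psma3, Psmb4 and Psmb7, beside 7.05% of all genes) and for 2 that lay lower (Psmc5 and Psmd7, beside 9.6%). The member median was 0.27, beside -0.01 over all genes, and 0.06 without MI 13 and Blood 21. Endothelial markers (6 genes) also differed in sum between these groups, from 1663 to 1849 in MI to 395 to 763 in MI + MSC. Their median log2 fold change was -1.60, beside -1.36 for cardiomyocyte, -1.22 for erythroid and 0.54 for macrophage and monocyte markers. None of these markers was called, and their part was not tested.

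In blood, no gene was called between Blood + MSC and Blood in either direction, beside 0% of all genes. At an unadjusted p under 0.05, 1 of the 41 genes passed beside 7.34% of all genes. Of all genes, edgeR called 0, and DESeq2 called 1 higher and 38 lower on the 2 groups and 4 higher and 175 lower on all libraries, again with no member among them. That gene was Psma3, at 186 and 192 in Blood + MSC and at 7.07 and 193 in Blood (2.19 ± 0.98, adjusted p = 0.672), and without Blood 21 its fold change was -0.03. The immunoproteasome genes had fold changes of -0.20 for Psmb8 (95% interval -1.40 to 1.01), -0.52 for Psmb9 (-1.86 to 0.81), 0.45 for Psmb10 (-0.57 to 1.46), 0.07 for Psme1 (-0.93 to 1.06) and 1.09 for Psme2 (-1.06 to 3.24). The groups did not overlap for 2 genes that lay higher with MSC (Psmd1 and Psmd2, beside 21% of all genes) and for 2 that lay lower (Psmc5 and Psmd8, beside 15.4%). Neutrophil markers (11 genes) also differed in sum, at 44194 to 51265 in Blood and 16403 to 23270 in Blood + MSC. None of the 11 was called, and their part was not tested.

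Blood 21 and Blood 22 again set the direction in blood. The member median was 0.39, beside 0.11 over all genes, with 34 of 41 genes positive, and it became -0.17 without MI 13 and Blood 21, with 35 of 41 negative. Without Blood 22, 10 genes were called higher with MSC (beside 9.64% of all genes), among them Psma3, Psma5, Psma7, Psmb3 and Psmd12, in a comparison that then holds Blood 21 as its only library without MSC. The difference between the MSC effect in the heart and that in blood, tested as an interaction, gave 0 genes in either direction, beside 0% of all genes. At an unadjusted p under 0.05 this test passed 1 of the 41 genes, Psmd8 (1.23 ± 0.49, adjusted p = 0.630), beside 7.26% of all genes. There edgeR called 0 genes and DESeq2 18 higher and 2 lower, with no member among them. Without Blood 22, 6 genes were called lower in the interaction (Psma3, Psma5, Psma7, Psmc2, Psmc3 and Psmd12, beside 7.33%).

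**Figure D5:**
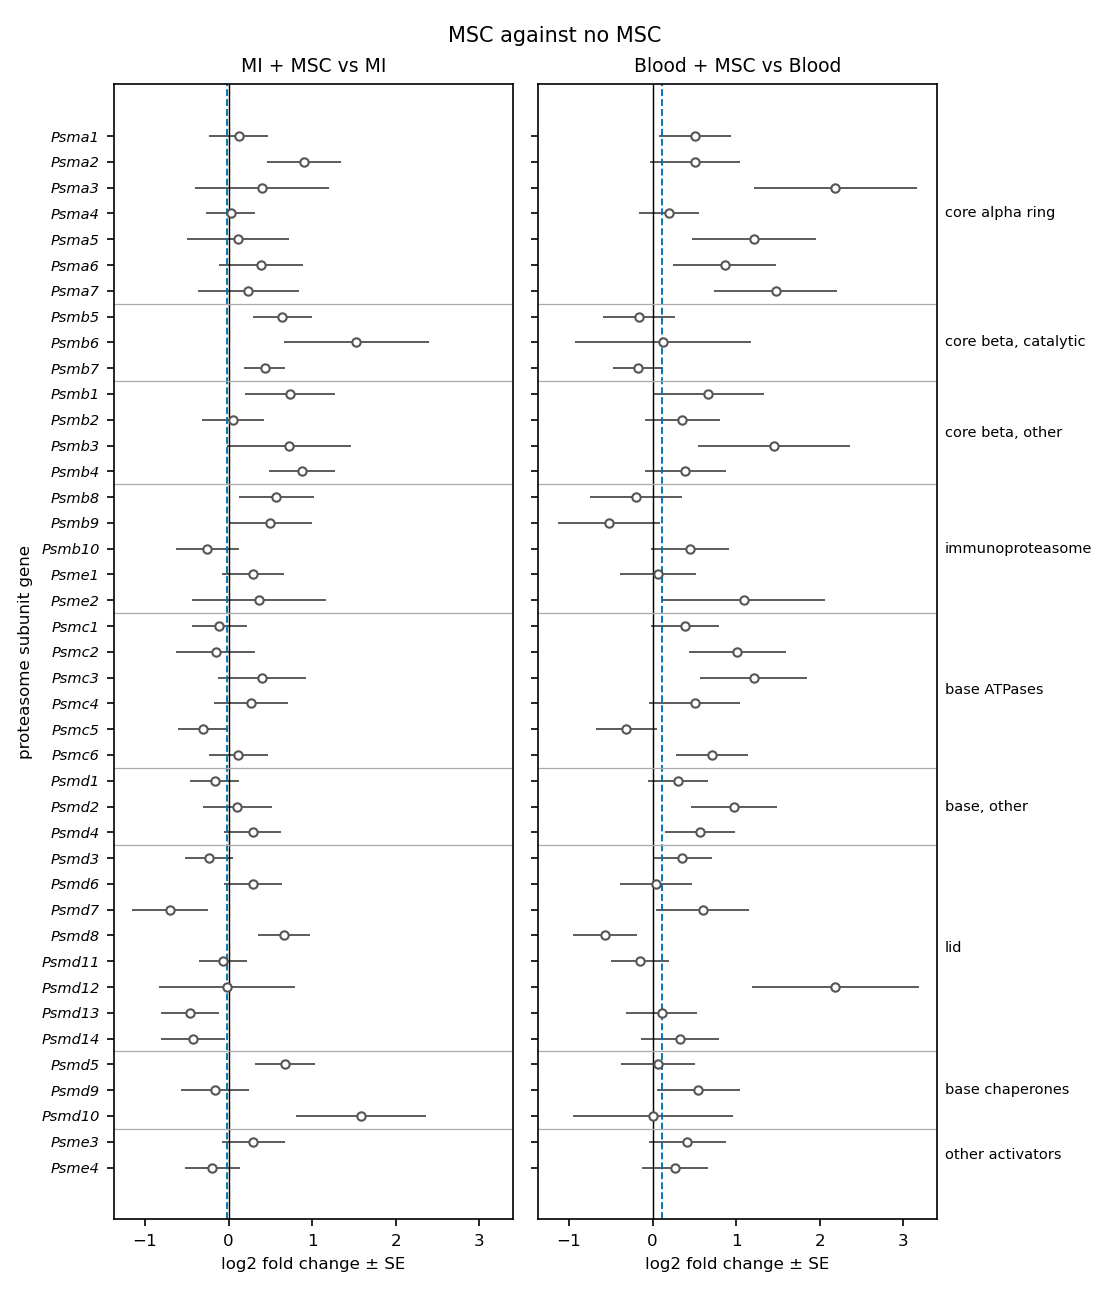
Log2 fold changes ± SE (limma, horizontal axes) of the 41 tested genes for MI + MSC against MI (left) and Blood + MSC against Blood (right), by role. Points are open because none was called, and the dashed blue line is the median of all 11549 genes. Psmb6, with 0 reads in MI 13, and Psma3 and Psmd12, with 1 and 0 reads in Blood 21, have wide error bars.

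The other genes of the pathway, a list of 39 of which 36 were tested, gave 2 higher calls (beside 21.2% of all genes) and 5 lower calls (beside 13.5%) in MI against Blood, so that neither stood out above the background. Sem1, a small lid subunit outside the Psm naming, stood at 84.0, 78.8 and 74.6 in MI and at 134 and 562 in Blood (-1.77, adjusted p = 0.0157). Usp14, a deubiquitinase that docks on the base, stood at 84.0, 58.6 and 69.5 in MI and at 42.4 and 23.4 in Blood (1.10, adjusted p = 0.0333). Sem1 lay lower and Usp14 higher in every cardiac than in every blood library. Nfe2l1, the transcription factor known to drive subunit genes when the proteasome is inhibited, stood at 261, 320 and 260 in MI and at 177 and 98.8 in Blood (1.07, adjusted p = 0.0188). Ngly1, the enzyme that removes sugar chains from Nfe2l1 on its way to the nucleus, stood at 50.4, 82.7 and 66.4 in MI and at 170 and 300 in Blood (-1.76, adjusted p = 0.00320). The pair thus moved in opposite directions, and the groups overlapped for neither.

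Uba1, which activates ubiquitin, was lower in MI (-1.23, adjusted p = 0.0120). On the side of antigen presentation, Tap2, a chain of the peptide transporter beside Psmb8 and Psmb9 in the genome, stood at 42.0, 47.1 and 43.7 in MI and at 70.7 and 106 in Blood (-0.94, adjusted p = 0.0307). H2-D1, an MHC class I heavy chain, was lower as well (-1.81, adjusted p = 0.0323), and the other 9 genes of that list, Tap1 and Irf1 among them, were not called. In MI + MSC against Blood + MSC, where 8.23% of all genes were called higher and 5.85% lower, Nfe2l1 was higher (1.01, adjusted p = 0.0443), and Sem1 (-1.61, adjusted p = 0.0441), Ngly1 (-1.42, adjusted p = 0.0182) and Uba1 (-1.05, adjusted p = 0.0451) were lower. Neither MSC comparison called any of the 36.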

How the data were processed

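Per the labels and the study's methods, the authors checked the quality of the paired reads (FastQC), trimmed them (Trimmomatic) and removed duplicates (Picard). They then aligned to GRCm39 with STAR, counted by strand with featureCounts, left out reads of the mitochondrial genome and scaled the libraries by DESeq2. The deposited signal values are those counts divided by a size factor. Both deposited tables held the same 281850 values, and 100% of them were whole multiples (tolerance 0.02) of 1 read's worth. Of 28185 genes, 27906 matched GENCODE vM39.

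Genes with a mean of at least 10 were tested with limma 3.58.1 (R 4.3.3; trend, 1 mean per group, all 10 libraries) on log2(normalized count + 2), which gives all adjusted p-values (Benjamini-Hochberg over 11549 genes). A call needed adjusted p under 0.05 and a log2 fold change of 0.5 in size. For the interaction, the adjusted p alone decided. The 95% intervals use the moderated t distribution. Alternatives were edgeR 4.0.16 and DESeq2 1.42.0 on the recovered reads, voom weights, TMM and library size scaling, other pseudocounts (1, 5), other filters, the 2 compared groups alone, and leaving out libraries. The members, gene lists and rules were chosen with earlier results of these data known. Values per library were given for the exchanged subunits, their constitutive partners, the 10 called subunits of largest fold change without overlap, and the smallest unadjusted p where none was called; values of other subunits were chosen after they were seen. The fit was also run on simulated reads with planted changes, and nothing stated here rests on that outcome. Counting by near-identical copies can split reads.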

Additional observations from a re-analysis of the deposited data

How the results depend on the processing

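No paired analysis was possible because the library numbers are not shared between groups. Depth was the main limit: in MI 13 and Blood 21 a gene with under 3 reads may lie anywhere up to 25.2 and 21.2 normalized counts. The cause of the changes given here was not tested.

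In MI against Blood, 5 genes were higher and 6 lower. The higher count was 0 with DESeq2 on the 2 groups, with limma on only the 2 groups and with voom weights, 1 with DESeq2 on all libraries, with TMM and without MI 13 and Blood 21 (chosen after the data had been seen), 2 with edgeR, and 3 with a mean of at least 20 or with no filter. The lower count was 0 on only the 2 groups, 2 with library size, 3 with TMM, 10 with voom weights, 13 with edgeR and 18 without MI 13 and Blood 21. Leaving out 1 library gave 1 to 6 higher, 0 to 15 lower and member medians of -0.98 to 0.23. Psma2 and Psmb9 kept their calls in 20 of 22 alternatives, Psmd7 in 18 of 21, and of 22 Psme1 in 18, Psmd9 in 14, Psmb4 and Psme2 in 13, Psmd3 in 11, Psmd13 in 10, Psmd1 in 6 and Psmd12 in 4. In MI + MSC against Blood + MSC, Psmd13 kept its call in 20 of 22, Psme2 in 18 and Psma2 in 16. Psmb10 turned to 0.11 with library size. Psmb5 turned to 0.040 and 0.12 with DESeq2 on 2 groups and on all libraries, 0.074 with edgeR, 0.35 with library size, 0.20 with voom weights and 0.39 without MI 13 and Blood 21. Psmb6 turned to 0.24, 0.31, 0.28, 0.35 (voom) and 0.34 under the same settings except library size. Leaving out 1 library gave -0.39 to 0.26 for Psmb5 and -1.39 to 0.65 for Psmb6.

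In MI + MSC against Blood + MSC, 0 genes were higher and 3 lower. The higher count was 1 with DESeq2 on 2 groups, edgeR and only the 2 groups, and 2 with voom weights and without MI 13 and Blood 21. The lower count was 18 with DESeq2 on 2 groups, 11 with DESeq2 on all libraries, 15 with edgeR, 16 on only the 2 groups, 17 with voom weights and 18 without MI 13 and Blood 21. The member median was -1.18 with TMM. Leaving out 1 library gave 0 to 11 lower and medians of -0.70 to -0.40.

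In MI + MSC against MI, the member median was 0.52 with TMM and 0.062 without MI 13 and Blood 21, and 0.062 to 0.35 when 1 library was left out. Psmb9 turned to -0.050 with voom weights and -0.16 without MI 13 and Blood 21, and Psmb10 to 0.0068 with TMM. The ranges on leaving out 1 library were -0.16 to 0.84 for Psmb9, -0.49 to 0.092 for Psmb10 and -0.19 to 0.98 for Psme2. In Blood + MSC against Blood, Psmb8 turned to 0.10 with library size and 0.47 with TMM, and Psmb9 to 0.13 with TMM. Psme1 turned to -0.15 and -0.21 with DESeq2 on 2 groups and on all libraries, -0.17 with edgeR, -0.066 with voom weights and -0.63 without MI 13 and Blood 21, where Psme2 was -0.53 and Psma3 -0.027. Leaving out 1 library gave -0.43 to 0.033 for Psmb8, -0.63 to 0.76 for Psme1, -0.53 to 2.71 for Psme2, -0.027 to 4.40 for Psma3, 0 to 10 genes higher and medians of -0.17 to 0.997. The interaction gave 0 to 6 genes lower. The immunoproteasome shares with the longest coding transcript were 55.5%, 49.2%, 71.7% and 71.3%.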
